A study of Homo sapiens with 6 samples.

Results

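Always-called distal sites are the accessible chromatin sites of K562 cells that overlapped a deposited peak in each of 6 ATAC-seq libraries and whose midpoint lay more than 10 kb from either end of every protein-coding gene. They were taken from chromosomes 1 to 22 of the authors' table of 181135 sites on GRCh38 (hg38), and 16778 sites (9.26%) met the rule. They made up 48.5% of the 34586 autosomal sites with a peak in all 6 libraries. They were thus chosen by peak calls in all libraries, made from the same reads as the counts. A site that closed fully or opened from nothing cannot be among them, and the values below describe sites that stayed called. K562 is a line established from a human chronic myelogenous leukaemia, and all 6 libraries came from wild-type cells of this line. Cells were collected after 0, 6 or 72 h of 25 nM PMA (phorbol 12-myristate 13-acetate), which the labels describe as driving megakaryocyte differentiation, with 2 libraries per time. In ATAC-seq a transposase cuts accessible DNA, and the count of reads over a site is a measure of its accessibility. The medium was changed during the longer treatment, so at 72 h the effects of PMA, time in culture and fresh medium cannot be told apart. The labels do not say whether replicates were separate cultures, so the p-values measure only the spread between these libraries.

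Accessible sites far from gene ends include enhancers, insulators bound by CTCF, and starts of transcripts that do not lie at the outer end of a protein-coding gene. Enhancers bind combinations of factors, in K562 cells for example GATA1 and TAL1, the erythroid regulators, and their accessibility usually follows the factors that are active. PMA mimics diacylglycerol and activates protein kinase C, which signals through the ERK kinases to AP-1, a dimer of FOS and JUN family proteins that binds TGAGTCA. K562 cells treated this way are known to lose erythroid and gain megakaryocytic features.

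A genome sequence was not used here, but 1108 of the tested sites held a RefSeq transcript start for which the sequence was at hand (GRCh38.p14). Windows at starts of sites that rose and of sites that fell are shown because they differ in base composition and in AP-1 letters, as counted later. Capitals mark the searched motifs on either strand, which may overlap. These are the AP-1 letters TGAGTCA, which read TGACTCA on the other strand, the GATA letters AGATAA with the variant TGATAA, the RUNX letters TGTGGT, the ETS letters AGGAAGT with the variant CGGAAGT, and the core of the CTCF motif. For protein-coding genes the 250 bases before the start are printed, and for lncRNA genes (long non-coding RNA) 250 before and 50 after it, each 5′ to 3′ on the gene's strand. The first 4 windows come from sites that rose at 72 h: an internal start of KCNMA1, a calcium-activated potassium channel (minus strand, chr10:77350762-77351011), an internal start of IL1RN, the interleukin-1 receptor antagonist (plus strand, chr2:113117721-113117970), and the starts of the lncRNAs LOC105372663 (plus strand, chr20:51366185-51366484) and LOC105375284 (minus strand, chr7:54995988-54996287).
KCNMA1: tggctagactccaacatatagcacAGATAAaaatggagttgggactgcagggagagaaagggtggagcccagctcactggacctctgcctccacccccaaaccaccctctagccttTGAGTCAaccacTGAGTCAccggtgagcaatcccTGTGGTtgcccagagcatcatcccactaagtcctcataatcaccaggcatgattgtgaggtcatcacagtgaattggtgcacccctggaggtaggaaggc
IL1RN: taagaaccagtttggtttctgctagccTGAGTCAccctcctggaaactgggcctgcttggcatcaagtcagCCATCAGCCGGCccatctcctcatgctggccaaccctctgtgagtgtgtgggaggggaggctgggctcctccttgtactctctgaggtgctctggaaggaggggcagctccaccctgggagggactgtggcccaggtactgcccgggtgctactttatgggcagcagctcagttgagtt
LOC105372663: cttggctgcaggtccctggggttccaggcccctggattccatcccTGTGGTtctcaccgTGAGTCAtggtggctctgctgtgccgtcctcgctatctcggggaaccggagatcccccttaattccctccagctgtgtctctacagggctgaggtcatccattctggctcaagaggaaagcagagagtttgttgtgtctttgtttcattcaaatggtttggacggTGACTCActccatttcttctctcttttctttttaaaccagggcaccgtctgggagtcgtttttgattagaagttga
LOC105375284: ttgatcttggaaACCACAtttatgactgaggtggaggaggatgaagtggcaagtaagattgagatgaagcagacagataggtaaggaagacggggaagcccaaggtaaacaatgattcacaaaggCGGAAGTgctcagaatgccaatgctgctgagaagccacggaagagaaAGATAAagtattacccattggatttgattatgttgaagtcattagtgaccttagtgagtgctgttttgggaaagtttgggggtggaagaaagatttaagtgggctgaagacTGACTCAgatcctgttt
The AP-1 letters are in all of these: 2 copies each before KCNMA1 and at LOC105372663, and 1 copy each before IL1RN and at LOC105375284.

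The other 4 windows come from sites that fell at 72 h: internal starts of ANK3, ankyrin G of the membrane skeleton (minus strand, chr10:60140741-60140990), and of NFIB, a transcription factor (minus strand, chr9:14314955-14315204), and the starts of the lncRNAs LOC101928166 (minus strand, chr3:152205380-152205679) and TMC5-AS1 (minus strand, chr16:19487852-19488151).
ANK3: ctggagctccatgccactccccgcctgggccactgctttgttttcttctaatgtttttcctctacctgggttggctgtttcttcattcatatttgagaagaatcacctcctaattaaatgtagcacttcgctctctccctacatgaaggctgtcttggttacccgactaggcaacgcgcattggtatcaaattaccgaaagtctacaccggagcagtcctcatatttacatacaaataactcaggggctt
NFIB: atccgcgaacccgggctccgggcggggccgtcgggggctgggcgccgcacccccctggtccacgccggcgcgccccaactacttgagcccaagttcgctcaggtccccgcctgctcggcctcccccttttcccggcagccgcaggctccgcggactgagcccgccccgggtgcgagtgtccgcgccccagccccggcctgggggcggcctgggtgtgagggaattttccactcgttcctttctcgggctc
LOC101928166: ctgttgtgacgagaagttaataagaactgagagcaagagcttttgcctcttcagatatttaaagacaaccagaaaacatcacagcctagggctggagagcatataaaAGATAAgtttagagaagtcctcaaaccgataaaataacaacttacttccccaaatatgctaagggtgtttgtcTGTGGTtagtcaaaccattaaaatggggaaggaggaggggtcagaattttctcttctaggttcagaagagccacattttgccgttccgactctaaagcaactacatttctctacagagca
TMC5-AS1: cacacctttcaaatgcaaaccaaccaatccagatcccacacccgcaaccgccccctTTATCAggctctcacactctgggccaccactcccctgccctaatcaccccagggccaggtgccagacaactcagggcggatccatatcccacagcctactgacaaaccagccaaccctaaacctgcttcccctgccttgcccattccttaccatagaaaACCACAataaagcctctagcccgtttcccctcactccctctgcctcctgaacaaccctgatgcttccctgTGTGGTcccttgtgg
None of these held the AP-1 letters. Of the 4 windows of falling sites, G and C made up 46.0%, 74.8%, 40.3% and 56.3% (ANK3, NFIB, LOC101928166 and TMC5-AS1), and of the 4 of rising sites 53.6%, 59.6%, 51.7% and 43.3% (KCNMA1, IL1RN, LOC105372663 and LOC105375284), so these ranges overlapped. A match or its absence describes these letters in these windows only.

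Counts over all sites summed to between 12258890 and 35548737 per library, and the sites described here had a median of 100 to 303 counts per library. All 6 K562 marker genes had a peak at a gene end in both 0 h libraries, as did 3 of 10 markers of other cell types (CD3E, CD3D and EPCAM), and 6 of those 10 did at 72 h, CSF1R, COL1A1 and PDGFRB being added. PAX5, CD14 and CDH1 had no site in the table within 1 kb of an end. The part of these other cell types in the results was not tested. Of the 16778 sites, 16746 were tested and 32 were removed by the filter on low counts. Sites were 200 to 3218 bases wide, with a median of 795 against 588 for the whole table. Of all 16778, 8210 (48.9%) lay within the body of a protein-coding gene, 6452 outside but within 100 kb of one, and 2116 further away. The median distance to the nearest gene end was 35.7 kb and the largest 4.46 Mb, and the median distance to the next such site was 20.05 kb.

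As a whole, the always-called distal sites kept more of their counts than the always-called sites at gene ends. Summed counts in the distal sites were 0.661 and 0.600 times those of the 10109 always-called sites within 1 kb of a gene end in the 0 h libraries, 0.767 and 0.741 times at 6 h, and 0.992 and 0.993 times at 72 h. The 3 times did not overlap, and the mean ratio was 0.631 ± 0.0431 (SD, n = 2), 0.754 ± 0.0180 and 0.992 ± 0.000772. A scaling factor per library leaves this ratio as it is, but offsets that vary with site strength, such as loess, could move it. Against the 101207 distal sites that lacked a peak in some library the ratio went the other way, from 1.80 and 1.82 at 0 h to 1.25 and 1.20 at 6 h and 0.631 and 0.638 at 72 h, which the choice by peak calls partly fixes. With 2 libraries against 2, an exact permutation test gives a p of 1 in 3 at best, so none was made. The distal sites held 24.3% and 23.2% of each library's counts at 0 h, 23.9% and 23.04% at 6 h and 20.4% in each 72 h library. A few repeated loci weighed on this share: 6 sites on chromosome 1 (chr1:628719-635020), where a nuclear copy of mitochondrial DNA lies, held 1.66%, 0.764%, 1.85%, 0.616%, 0.428% and 0.391% of counts in the 6 libraries in that order. Without the 168 sites with most counts the shares were 19.4% and 19.6%, then 19.8% and 20.3%, then 18.1% and 18.3%, and the mean ratio to gene ends still went from 0.517 to 0.642 and 0.886.

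Whether the typical distal site rose or fell depended on the scaling between libraries. With TMM, the median CPM (the count relative to the TMM-scaled library size) over the tested sites was 8.64 and 8.84, then 8.52 and 8.66, then 6.96 and 7.14, in the order of time. Their median log2 change against 0 h was −0.21 (6 h) and −0.61 (72 h), beside 0.05 and 0.29 for all tested sites. With TMM factors taken only from always-called sites of any kind (shared peaks below), these medians were 0.09 and 0.36, beside 0.35 and 1.26 for all tested sites. At 72 h against 0 h the TMM fit called 2452 sites higher and 8944 lower (edgeR quasi-likelihood test, adjusted p under 0.05), where 38.2% and 29.2% of all tested sites were called, and the shared-peak scaling called 7242 higher and 2220 lower. At 6 h against 0 h the TMM calls were 3270 higher and 4392 lower (23.4% and 16.8% of all sites), and at 72 h against 6 h they were 943 and 7031 (22.1% and 20.9%). The last of these counts rested on single libraries: 4611 sites were lower without 6 h replicate 2, 3849 without 72 h replicate 1 and 4002 without 72 h replicate 2, and 461 were higher without 72 h replicate 2. Sites are therefore said to have risen or fallen below only where 6 scalings all gave the same call. Always-called gene-end sites had lower medians at 72 h than the distal ones, −1.35 with TMM and −0.38 on shared peaks.

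**Figure D1:**
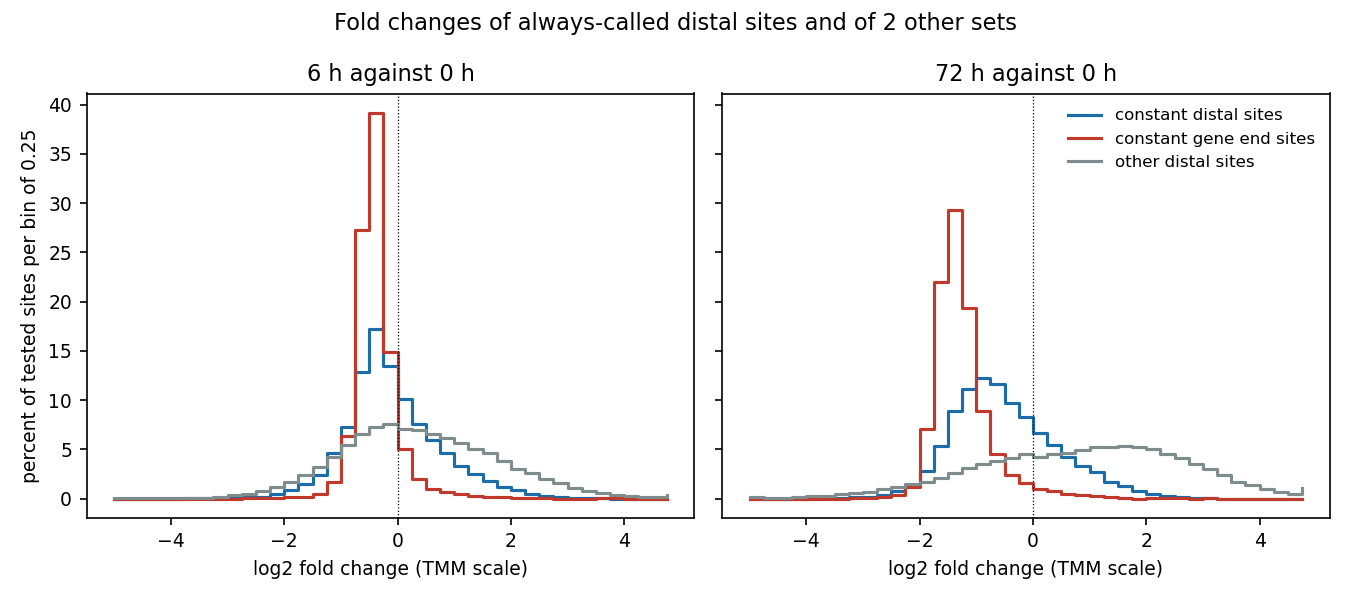
Distribution of log2 fold changes on the TMM scale at 6 h (left) and 72 h (right) against 0 h, as the percent of tested sites in each bin, for 16746 always-called distal sites, 10108 always-called gene-end sites and 98562 other distal sites. At 72 h the medians are −0.61, −1.35 and 1.00, and the distal curve is the wider of the 2 always-called sets.

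Under all 6 scalings, 1902 sites were higher and 1855 lower at 72 h than at 0 h, which is 11.4% and 11.1% of the tested sites. Over all tested sites, 27.8% were called higher and 9.27% lower in this way. The rule leaves out sites that opened or closed fully, so nothing is read from these shares. At 6 h, 2582 had risen and 2249 had fallen (15.4% and 13.4%, where 18.9% and 8.41% of all sites were called). Between 6 and 72 h, 814 rose and 796 fell (14.6% and 3.37% of all sites were called). Of the sites higher at 72 h, 1390 had already risen at 6 h, and of the lower ones 1081 had already fallen. Without replicate 1 or 2 of the 72 h group the number lower at 72 h was 1188 or 1067, and without 6 h replicate 2 the number lower at 6 h was 1461. Between 6 and 72 h the number higher was 452 without 6 h replicate 1, 500 without 72 h replicate 1 and 261 without 72 h replicate 2, and the number lower was 472 without 6 h replicate 2, 327 without 72 h replicate 1 and 221 without 72 h replicate 2. With at least 50% of a site covered by peaks in every library the numbers at 72 h against 0 h were 750 higher and 1139 lower.

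The rising sites began low and the falling ones high. The groups were defined by a change that uses the 0 h counts, and a falling site had to stay called at 72 h. Nothing is therefore read from their starting levels. The median CPM of the 1902 rising sites was 5.00 and 5.35 before PMA, 11.7 and 13.2 after 6 h and 12.1 and 13.4 after 72 h. That of the 1855 falling sites was 20.8 and 19.7, then 9.20 and 8.98, then 5.61 and 5.66. On the TMM scale the median log2 change of the rising sites was 1.24 at 6 h and 1.15 at 72 h, and that of the falling sites −0.96 and −1.73. Which group went on changing after 6 h depended on the scaling: on shared peaks the medians were 1.54 and 2.12 for rising sites and −0.67 and −0.77 for falling ones. TMM changes at 72 h spanned 0.57 to 3.17 among the rising sites, 1244 of them being more than 2-fold up, and −3.69 to −1.31 among the falling ones. The commonest combined patterns were a rise at 6 h kept at 72 h with no call between them, and a fall of the same kind. They held 1274 and 1016 sites, 7.61% and 6.07% of those tested, beside 11.6% and 4.15% of all tested sites. Late changes, called at 72 h against both earlier times and not at 6 h, were fewer, with 311 rises and 249 falls. These were 1.86% and 1.49%, beside 8.31% and 1.36% of all tested sites. A site without a peak at 0 or 6 h cannot be among these late rises, so nothing is read from the shares. At 10188 sites (60.8%, beside 51.9% of all tested sites) no comparison was called in all 6 scalings, and 3140 sites had no call in the TMM fit. Only 43 sites had no call in any of the 6 scalings. The scalings themselves lay apart, the median log2 change of all these sites at 72 h being −0.79 with RLE factors and 0.36 on shared peaks. A call in some scalings only therefore shows no change, and whether the 10188 sites changed is not decided.

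The authors' peak lists were made from the same reads and are no separate support. They showed the same order within each list. By the authors' own fold enrichment per peak, rising sites had medians of 6.11 and 6.61 in the 0 h lists, where all always-called distal sites had 8.13 and 8.56, and falling sites 10.9 and 10.8. In the 72 h lists the medians were 10.7 and 12.2 for rising, 9.08 and 9.93 for all and 7.80 and 8.39 for falling sites. Peak summits in libraries of different times lay a median of 34 to 69 bases apart over all sites, with 29.5% to 41.8% of sites over 100 bases apart, and in libraries of the same time 31 to 49 bases, with 28.1% to 35.7%. For rising sites the medians were 28 to 88.5 bases between times and 23 to 76 within a time.

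**Figure D2:**
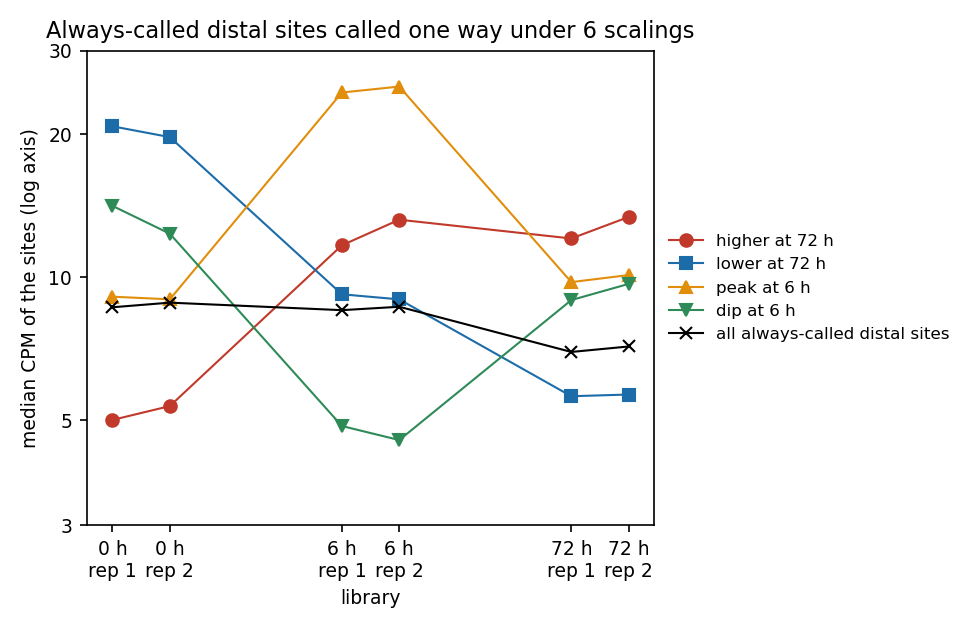
Median CPM (log axis) in each of the 6 libraries for always-called distal sites called one way under all 6 scalings: 1902 higher and 1855 lower at 72 h, 262 that peak at 6 h and 214 that dip at 6 h, beside all 16746 tested. Rising sites go from 5.00 and 5.35 to 12.1 and 13.4, and falling sites from 20.8 and 19.7 to 5.61 and 5.66.

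The largest rises at 72 h lay within TIAM2 and TAMM41, outside TLN2, and on a stretch of chromosome 22 without a near gene end. A site 84.2 kb outside TLN2, which encodes an integrin-linked talin (chr15:62928145-62929485), had a CPM of 3.44 and 3.39 before PMA, 10.1 and 10.97 after 6 h and 28.7 and 32.8 after 72 h. Each time stood apart from the others, and the log2 change at 72 h was 3.17 (SE 0.21, edgeR adjusted p = 1.6e-10). A site within TIAM2, an activator of the GTPase RAC1 (chr6:155126846-155127590), rose from 2.40 and 3.44 CPM to 25.8 and 28.8 at 6 h and stood at 21.3 and 22.8 at 72 h. Its log2 change was 2.90 (SE 0.21) at 72 h, and the difference between 6 and 72 h was −0.31 (SE 0.18, edgeR adjusted p = 0.16). Within TAMM41, needed for cardiolipin synthesis in mitochondria (chr3:11757180-11758080), the CPM went from 2.79 and 2.96 to 16.2 and 13.1 and then 19.7 and 22.2, a log2 change of 2.86 (SE 0.22) at 72 h. A site 103.6 kb from any gene end on chromosome 22 (chr22:22085596-22087083) was already accessible at 0 h, with a CPM of 14.6 and 10.8, and reached 48.7 and 50.3 at 6 h and 83.3 and 96.3 at 72 h. Its log2 change was 2.83 (SE 0.17).

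The largest rises at 6 h stood lower at 72 h on the TMM scale, and this fall was called in all 6 scalings at the DUSP5 site only of the 4. At a site 30.6 kb outside LOC105370092 (chr12:132393255-132394629) the CPM was 6.69 and 5.88 before PMA, 73.5 and 87.2 after 6 h and 34.9 and 49.4 after 72 h. The log2 change at 6 h was 3.68 (SE 0.19, edgeR adjusted p = 1.6e-11). A site 24.8 kb outside DUSP5, a phosphatase that dephosphorylates ERK in the nucleus (chr10:110535807-110536863), went from 3.90 and 3.11 to 40.5 and 41.7 and then 17.2 and 19.4. Its log2 change was 3.56 (SE 0.20) at 6 h and 2.39 (SE 0.20) at 72 h, with −1.17 (SE 0.17) between them. Sites within NGEF, a guanine nucleotide exchange factor (chr2:232979679-232980652), and IGF2BP2, an RNA-binding protein (chr3:185688581-185689394), had log2 changes of 3.54 (SE 0.21) and 3.47 (SE 0.21) at 6 h and of 2.62 and 2.44 at 72 h.

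Among the largest falls at 72 h were sites within ABL1 and DLC1. Within ABL1, the tyrosine kinase gene whose fusion to BCR marks this leukaemia (chr9:130824780-130825584), the CPM was 29.8 and 30.1 before PMA, 10.8 and 7.81 after 6 h and 2.15 and 2.50 after 72 h. All 3 times were apart, and the log2 change at 72 h was −3.69 (SE 0.22, edgeR adjusted p = 7.3e-11). A site within DLC1, which encodes a GTPase-activating protein (chr8:13105668-13106399), fell from 20.1 and 20.4 through 5.54 and 3.004 to 1.55 and 1.79, a log2 change of −3.59 (SE 0.27). Within TYW1B, a copy of TYW1 whose reads may be shared with it (chr7:72710794-72711662), 35.1 and 30.9 CPM became 3.24 and 2.69 and then 2.72 and 2.74, and the TMM fit called no difference between 6 and 72 h (edgeR adjusted p = 0.78).

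The other large falls at 6 h were 3 sites in the duplicated region around the centromere of chromosome 9 (chr9:40338648-40339544, chr9:64478726-64479614 and chr9:66036772-66037634). Their CPM was 35.5 to 51.5 in the 0 h libraries, 3.26 to 5.62 at 6 h and 8.79 to 10.8 at 72 h, and their log2 changes at 6 h were −3.35 (SE 0.21), −3.17 (SE 0.18) and −3.29 (SE 0.21). The values are so alike that reads of 1 locus may have been split among copies, and the 3 sites are counted as uncertain.

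**Figure D3:**
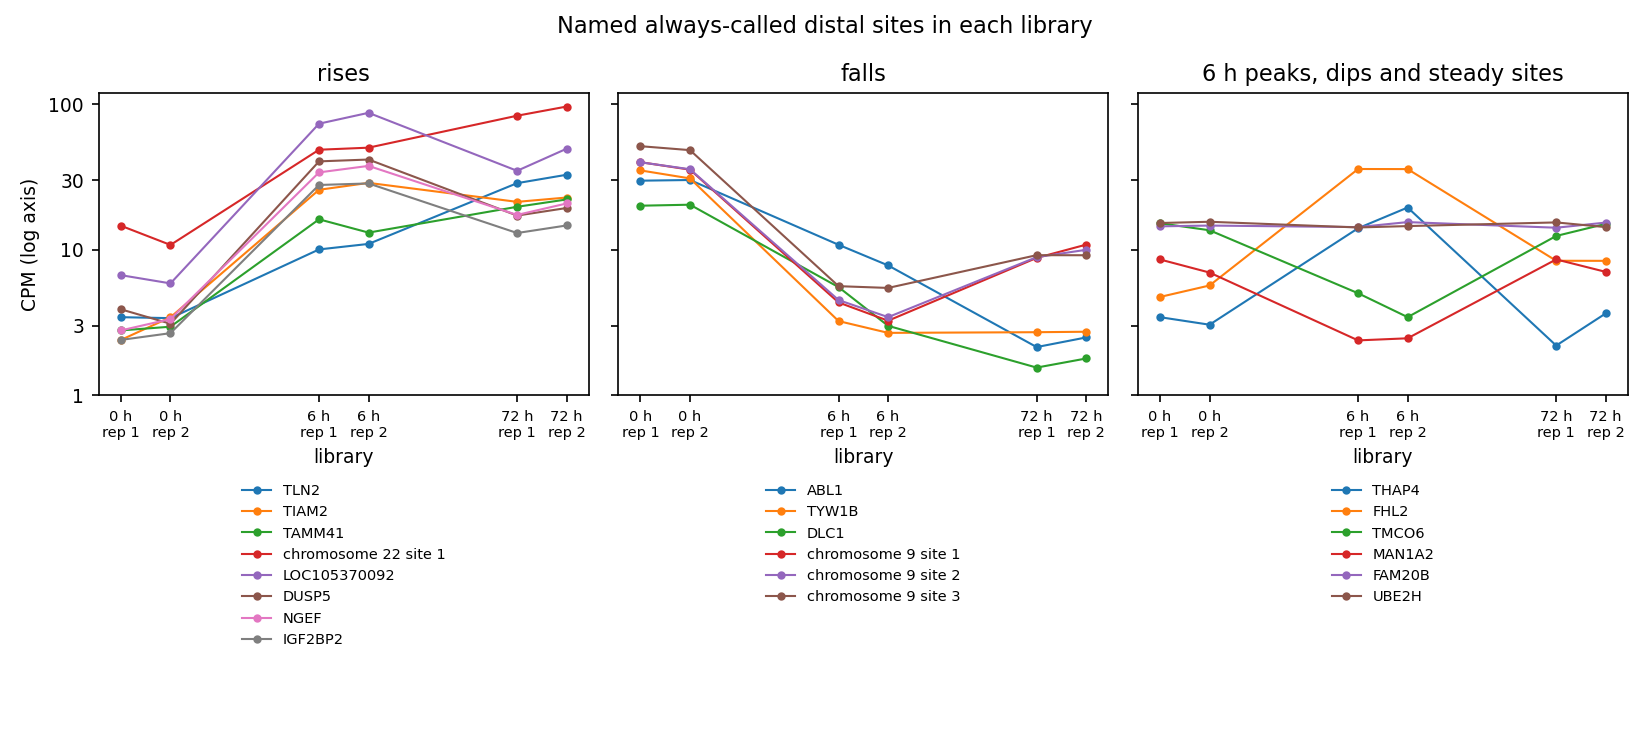
CPM (log axis) in each library of the sites with the largest rises (left), the largest falls (middle), and the clearest 6 h peaks and dips with the steadiest sites (right), each named by its gene or chromosome. The TLN2 site climbs from 3.44 and 3.39 to 28.7 and 32.8, the ABL1 site drops from 29.8 and 30.1 to 2.15 and 2.50, and the FAM20B site stays between 14.2 and 15.5.

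Transient changes were a small group. At 262 sites (1.56% of those tested, beside 0.828% of all tested sites) the 6 h level was higher than both others in all scalings, and at 214 sites (1.28% beside 0.940%) it was lower than both. Median CPM in the first group was 9.10 and 8.98 before PMA, 24.5 and 25.2 after 6 h and 9.76 and 10.1 after 72 h. Whether the 0 h level was regained depended on the scaling, the median log2 change at 72 h against 0 h being 0.017 with TMM and 0.98 on shared peaks. In the second group it was 14.1 and 12.3, then 4.86 and 4.54, then 8.95 and 9.68. Within THAP4 (chr2:241619721-241621037) the CPM was 3.44 and 3.06 before PMA, 14.1 and 19.5 after 6 h and 2.20 and 3.65 after 72 h, a rise of 2.39 (SE 0.27) and then a fall by 2.53 (SE 0.26) on the log2 scale. Within FHL2, a LIM domain cofactor (chr2:105403741-105404619), it was 4.74 and 5.69, then 35.9 and 35.8, then 8.41 and 8.39. Dips were found within TMCO6 (chr5:140610941-140611745), with 15.2 and 13.6, then 5.03 and 3.45, then 12.4 and 15.1, and 36.1 kb outside MAN1A2, a Golgi mannosidase (chr1:117564506-117565391), with 8.58 and 6.97, then 2.39 and 2.47, then 8.59 and 7.05. At both dips the 72 h and 0 h libraries overlapped on the TMM scale. The steadiest sites on the TMM scale lay within FAM20B, a xylose kinase (chr1:179060510-179061823), at 14.2 to 15.5 CPM in the 6 libraries, and within UBE2H, a ubiquitin-conjugating enzyme (chr7:129845280-129846389), at 14.2 to 15.6. They are steady on that scale only: on shared peaks the UBE2H site had a log2 change of 0.92 at 72 h.

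What a site overlapped went with its direction. Of the tested sites, 542 covered a RefSeq start of a protein-coding transcript that lies inside its gene, and these moved like gene ends: 9 rose and 159 fell at 72 h (1.66% and 29.3%), with a median log2 change of −1.27 (TMM), beside 0.950% and 28.5% and −1.35 for the 10108 tested gene-end sites. The 566 sites over a lncRNA start had 40 rises and 75 falls (7.07% and 13.3%) and a median of −0.88. The 15638 sites over no annotated start had 1853 rises and 1621 falls (11.8% and 10.4%) and a median of −0.57. Scaled on shared peaks the 3 medians were −0.30, 0.09 and 0.40, in the same order. The sets also differed in level before PMA. The median CPM at 0 h was 27.1 and 29.6 over protein-coding starts, 14.6 and 15.5 over lncRNA starts and 8.32 and 8.46 over no start. At the gene-end sites it was 34.2 and 36.5. The part of this level in the direction was not tested, and neither was the difference between these sets.

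Start sites with the largest changes had the following levels, the sites having been picked after their values were seen. At KCNMA1 (chr10:77350374-77351456) the CPM was 3.05 and 7.26 before PMA, 36.3 and 36.1 after 6 h and 20.6 and 21.2 after 72 h, a log2 change of 1.98 (SE 0.24, edgeR adjusted p = 3.4e-07) at 72 h. At the IL1RN start (chr2:113117351-113118134) it was 4.42 and 6.26, then 10.99 and 15.5, then 15.2 and 19.2. LOC105372663 went from 5.72 and 6.78 to 31.9 and 50.1 and 39.7 and 45.8, and LOC105375284, 23 kb outside EGFR, from 3.64 and 2.20 to 20.6 and 19.03 and 17.6 and 16.9. In each of these the 0 h libraries lay below all others. ANK3 fell in steps, from 16.1 and 20.7 to 7.16 and 9.30 and 2.85 and 2.57, a log2 change of −2.77 (SE 0.23, edgeR adjusted p = 2.1e-09), and NFIB from 10.0 and 10.6 to 4.86 and 5.98 and 2.22 and 1.79. LOC101928166 fell from 11.9 and 14.8 to 5.37 and 5.88 and 1.94 and 1.39, whereas TMC5-AS1 fell by 6 h, from 33.9 and 23.5 to 5.11 and 5.98, and stood at 5.46 and 4.36 at 72 h. An internal start of GSE1, a protein found with a histone demethylase complex (chr16:85612825-85614191), began from a higher level, with 93.3 and 94.2, then 39.9 and 44.3, then 18.5 CPM in each 72 h library.

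In the start windows printed at the beginning and their like, the AP-1 letters were in 24 of the 49 windows of rising sites (49.0%), 11 of the 234 of falling sites (4.70%) and 87 of the 825 of other sites (10.5%), with 1 window per site. They were in 2.83% of the 7504 windows at always-called gene ends and in 4.96% of all 34943 RefSeq start windows of this length. RUNX letters were in 24.5%, 8.12% and 14.7% of rising, falling and other windows (13.1% of all RefSeq windows), and ETS letters in 22.4%, 13.7% and 16.2% (14.4%). GATA letters differed less, with 18.4%, 13.7% and 15.2% (16.3%), and so did the CTCF core, with 16.3%, 16.7% and 13.8% (10.6%). Motifs of different kinds may overlap. The median window of a rising site was 51.7% G and C with 5 CpG dinucleotides, and that of a falling site 69.0% with 30, so base composition moved with direction. The kind of start differed too. Of the rising sites 9 lay over a protein-coding start and 40 over a lncRNA start only, against 159 and 75 of the falling sites. The part of base composition and of the kind of start in the motif counts was not tested. The differences between the sets of windows were not tested either.

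On the TMM scale, sites over genes for short structural RNAs lay lower at 72 h as a group. The tRNA, rRNA and snRNA gene sites had a median log2 change of −0.34 on shared peaks. They include the 45S rRNA sites, for which no direction is given below. The sites covered 164 of 439 autosomal RefSeq tRNA genes in 139 sites, and 26 sites lay over rRNA, 53 over snRNA (small nuclear RNA), 11 over snoRNA and 38 over miRNA genes. All 218 sites over tRNA, rRNA or snRNA genes had a log2 change below 0 at 72 h on the TMM scale, with a median of −1.31, and 206 (94.5%) were called lower by edgeR, beside 53.4% of all always-called distal sites. In all 6 scalings 41 (18.8%) fell, beside 11.1%. Of the always-called gene-end sites, 93.2% were called lower with TMM and 28.5% fell in all scalings. The median CPM of the tRNA gene sites was 22.2 and 40.5 before PMA, 23.6 and 26.6 after 6 h and 13.1 and 14.1 after 72 h. The 0 h replicates were far apart, 1 of them below both 6 h libraries, and the 72 h libraries lay below the rest. Their log2 changes at 72 h spanned −2.01 to −0.24, and the median was −1.28 with TMM and between −1.46 and −0.30 with the other scalings. The tRNA genes, like the 5S rRNA and U6 genes, are read by RNA polymerase III.

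Of the arrays of near-identical genes, the one of 5S rRNA fell as a block in all scalings, and the others below did not. The 10 sites at the 5S rRNA genes (chr1:228609994-228632990), all in the neighbourhood of RHOU, had a median CPM of 25.5 and 46.0 before PMA, 24.9 and 29.3 after 6 h and 10.5 and 10.6 after 72 h, and log2 changes at 72 h of −1.85 to −1.57. All 10 fell at 72 h in every scaling. At 11 sites over snRNA genes on chromosome 17 (chr17:43245163-43368337) the median CPM was 141.3 and 132.3, then 66.0 and 69.5, then 30.4 and 34.5, and 6 of the 11 fell in all scalings. The 15 sites over 45S rRNA genes on chromosome 21 (chr21:8205153-8447008) had medians of 857 and 533 before PMA, 351 and 331 after 6 h and 339 and 256 after 72 h. Their log2 change at 72 h was −1.18 with TMM but 1.40 with loess offsets, so no direction is given, although edgeR with TMM called all 15 lower. Likewise 19 sites over SNAR genes on chromosome 19 had a median of −1.10 with TMM and 0.14 with loess offsets, although TMM called all 19 lower. Reads from copies in an array may have been shared out among them, so these sites are not independent of each other. At the 11 sites over snoRNA genes, edgeR with TMM called 9 lower and 2 higher at 72 h. In all 6 scalings 2 rose and 0 fell (18.2% and 0%), beside 11.4% and 11.1% of all always-called distal sites. A site over SNORD170, a snoRNA gene within TRIO (chr5:14463489-14464252), was among those that rose, with a log2 change of 2.25 (edgeR adjusted p = 1.9e-08).

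Of the 38 sites over miRNA genes, 1 rose and 8 fell at 72 h (2.63% and 21.1%, beside 11.4% and 11.1% of all always-called distal sites), and 6 rose and 7 fell at 6 h (15.8% and 18.4%, beside 15.4% and 13.4%). The 6 h shares lay near those of all such sites. Sites over both MIR4435 copies, MIR4276 and MIR12118 were among the 6 h rises, with log2 changes of 0.73 and 0.79 (the near-identical copies, whose reads may be shared), 1.27 and 0.99, and MIR148B (−1.21), MIR4729 (−1.61), MIR5189 (−0.94) and MIR4441 (−1.23) among the 6 h falls.

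**Figure D4:**
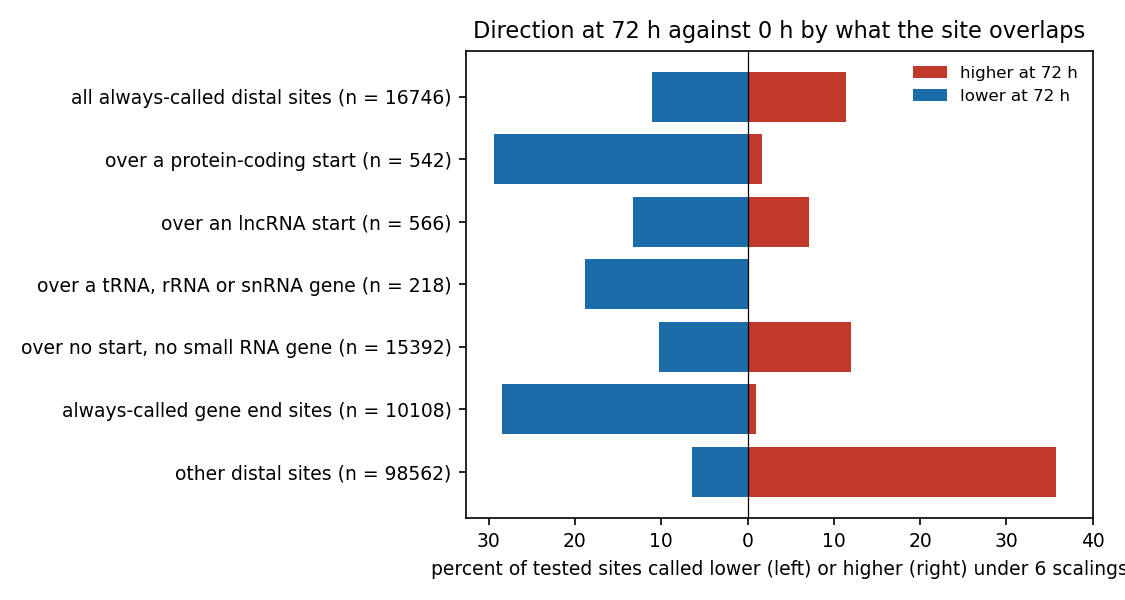
Percent of tested sites called lower (left of 0) or higher (right of 0) at 72 h against 0 h in all 6 scalings, for always-called distal sites by what they overlap, beside always-called gene-end sites and other distal sites. Sites over a protein-coding start (1.66% higher, 29.3% lower) resemble gene-end sites (0.950% and 28.5%), and sites over none of these features are more even.

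Removing start sites and all small RNA genes left 15392 tested sites with 1850 rises and 1575 falls (12.02% and 10.2%). Of these, 12.2% of the 7532 within protein-coding genes rose and 10.4% fell, as did 11.9% and 10.1% of the 7860 outside. The sets by distance that follow were taken without this removal, so they include start sites and small RNA genes. The most remote sites stood lower. Of the 405 tested sites more than 500 kb from any gene end, 13 rose and 65 fell (3.21% and 16.0%), with a median of −1.07 (TMM), and between 100 and 500 kb 12.7% rose and 11.3% fell. On shared peaks the median was −0.10 beyond 500 kb and 0.41 between 100 and 500 kb. The difference was not tested. Just inside the rule, at 10 to 12 kb, the median was −0.68 with 11.7% rising and 12.1% falling, and just outside, at 8 to 10 kb, it was −0.73 with 8.27% and 12.6%. Distal sites with a peak in 5 of the 6 libraries had a median of −0.25, and 22.9% rose and 7.74% fell.

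Neighbouring sites tended to move together at short range. The pairs include neighbours in the arrays of near-identical genes above, which are not independent of each other, and were not counted without them. Where both sites of an adjacent pair were called at 72 h in all scalings, 17 of 19 pairs up to 2 kb apart moved the same way, 114 of 143 at 2 to 10 kb, 225 of 318 at 10 to 50 kb, 167 of 282 at 50 to 200 kb and 88 of 141 beyond. Over all adjacent pairs the Pearson correlation of log2 changes at 72 h was 0.53 (389 pairs), 0.26 (2608), 0.17 (5614), 0.09 (5172) and 0.08 (2941) in the same order, as a description across sites that share the same 6 libraries. Exceptions within 5 kb numbered 4, at BCAT1, SOCS3, FHL2 and CRB2. At FHL2 a site over an internal start (chr2:105398476-105399364) fell from 23.3 and 29.7 CPM at 0 h, through 31.2 and 34.9, to 10.1 and 9.34 at 72 h. Its neighbour 1.93 kb away (chr2:105396567-105397420) rose from 8.77 and 12.5 through 35.9 and 37.2 to 18.1 and 19.1. At BCAT1, a branched-chain amino acid transaminase, 1 site (chr12:24933578-24934287) held at 18.1, 17.3, 16.1 and 17.2 CPM up to 6 h and fell to 5.97 in each 72 h library, while the next (chr12:24937351-24938215) rose from 7.73 and 6.35 to 17.4 and 18.4 and stood at 9.65 and 13.04.

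**Figure D5:**
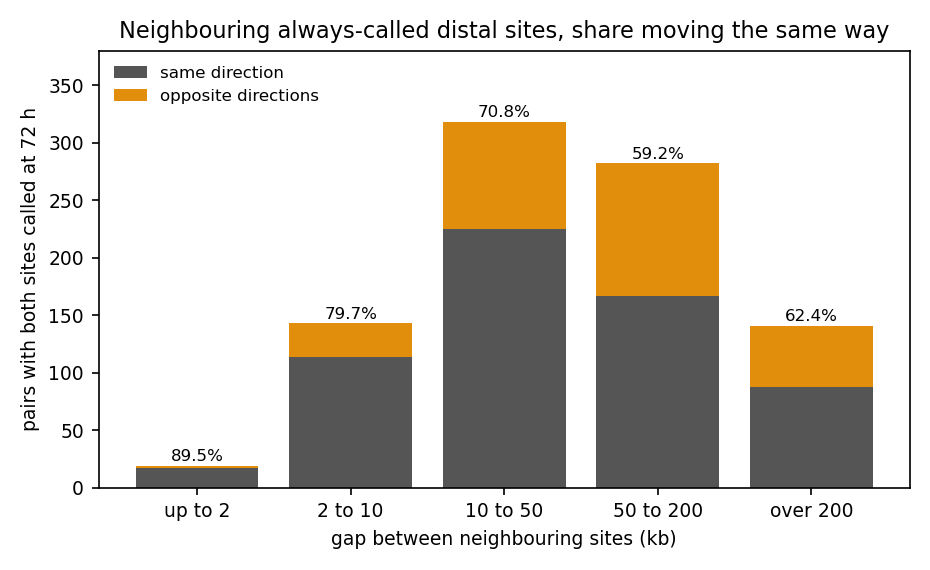
Number of adjacent pairs of always-called distal sites, by the gap between them in kb, in which both sites were called at 72 h against 0 h in all 6 scalings, divided into pairs moving the same way and opposite ways, with the percent moving the same way above each bar. It is 89.5% up to 2 kb and 59.2% at 50 to 200 kb. Pairs within arrays of near-identical genes are included.

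Within single genes, rising and falling sites were often mixed. Of 575 genes with at least 2 called sites, 349 had all of them in 1 direction and 226 had both. Whether these numbers differ from those of unrelated sites was not tested. Genes with 5 or more rising sites, singled out after their values were seen, were ZMIZ1 (7 of 21 sites), SHB (6 of 12), SNX9 (5 of 10), HIVEP3 (5 of 7), PRKCE (5 of 6) and RUNX1 (5 of 12), and those with 5 or more falling sites, beside the RNA gene arrays at RHOU and CCDC200, were GSE1 (7 of 38, with 2 rising) and IQSEC1 (5 of 12). Among all tested always-called distal sites, 11.4% rose and 11.1% fell at 72 h, beside 27.8% and 9.27% of all tested sites. A gene with more sites reaches 5 more easily, and the counts per gene were not tested. PRKCE encodes a protein kinase C that phorbol esters activate. Its 5 rising sites summed to 24.8 and 30.2 CPM before PMA, 79.6 and 85.5 after 6 h and 60.3 and 59.8 after 72 h, and all 5 had risen at 6 h. HIVEP3, a zinc finger factor, differed in timing: only 2 of its 5 rising sites had risen at 6 h, and 1 of them (chr1:41683475-41684556) had 3.44 and 4.35, then 3.92 and 4.39, then 19.4 and 19.1 CPM.

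RUNX1, a factor required for megakaryocytes, had both directions among its 12 sites. Rising and falling sites were grouped by these same counts, so nothing is read from their starting levels. The falling sites began higher: within the gene, chr21:34908181-34909123 went from 33.3 and 23.6 CPM to 10.99 and 12.1 and then 9.05 and 6.41, and chr21:35026493-35027564 from 48.9 and 59.6 to 23.9 and 27.2 and then 16.3 and 17.1. Outside it, chr21:35106068-35107005 went from 27.7 and 29.95 to 7.92 and 9.30 and then 7.63 and 7.52. The rising ones began low and peaked at 6 h in part: chr21:34967283-34968099 went from 5.59 and 6.64 to 26.7 and 27.0 and then 13.2 and 12.002, and chr21:34982931-34984233 from 5.72 and 7.83 to 27.3 and 30.1 and then 13.4 and 10.5. Their log2 changes at 72 h were 1.04 (SE 0.19) and 0.80 (SE 0.20), and the summed CPM of all 12 sites was 271.1 and 331.7, then 263.9 and 319.8, then 161.0 and 159.9. A large part of these sums came from a site within the gene (chr21:34887833-34890423) with no comparison called in all 6 scalings. Its CPM was 114.7 and 172.2, then 114.6 and 145.9, then 52.4 and 59.2.

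Lists of genes with known roles had few such sites each, and each list is given by its counts, with no test. The median log2 change of all tested always-called distal sites, −0.21 at 6 h and −0.61 at 72 h, stands beside each list's, and so do the shares of these sites that rose and fell, 15.4% and 13.4% at 6 h and 11.4% and 11.1% at 72 h. Sites were assigned to the gene holding them or to the nearest end within 100 kb. Of 60 sites at 18 genes of AP-1, the immediate early response and ERK feedback, 20 rose and 3 fell at 6 h (33.3% and 5.00%), and 15 rose and 2 fell at 72 h (25.0% and 3.33%), with median log2 changes of 0.35 and −0.19. KLF6, an early response zinc finger factor, had 5 of 7 sites rising at 6 h, and its 7 sites summed to 100.1 and 91.9 CPM before PMA, 243.5 and 229.1 after 6 h and 88.3 and 93.1 after 72 h. On this scale the 72 h sums overlapped those before PMA, but 3 of the 7 sites were still higher at 72 h in all 6 scalings, with log2 changes of 0.94, 0.95 and 1.18. IER3 had 3 of 4 sites rising at both times, with sums of 50.5 and 48.3, then 93.8 and 102.9, then 72.5 and 71.5. The falling site of this list at 72 h with the largest change lay within BACH1, a repressor that competes at AP-1-like sites (chr21:29316190-29317317), with 9.36 and 9.41, then 5.45 and 5.66, then 2.95 and 2.83 CPM.

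Of 43 sites at 12 erythroid genes, 3 rose and 11 fell at 6 h (6.98% and 25.6%) and 2 rose and 8 fell at 72 h (4.65% and 18.6%), with medians of −0.31 and −1.03. TFRC, the transferrin receptor that brings iron into erythroid cells, had 2 of its 5 sites falling at both times. 1 of them (chr3:196126707-196128131) had 46.8 and 38.9 CPM before PMA, 9.80 and 15.7 after 6 h and 11.4 and 9.29 after 72 h, a log2 change of −2.05 (SE 0.20, edgeR adjusted p = 1.6e-08). ZFPM1, the GATA1 cofactor FOG1, had 4 of 6 sites falling at 6 h and 1 at 72 h, with sums of 173.6 and 194.1, then 105.2 and 111.7, then 76.3 and 79.4 CPM. A site within ANK1, the erythrocyte ankyrin (chr8:41806932-41807760), went the other way, from 3.31 and 5.64 to 31.6 and 37.5 and 14.1 and 15.8.

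Of 53 sites at 14 megakaryocyte and platelet genes, 11 rose and 7 fell at 6 h (20.8% and 13.2%) and 10 rose and 4 fell at 72 h (18.9% and 7.55%), with medians of 0.096 and −0.39. At 72 h, 5 of the rises and 3 of the falls were RUNX1 sites. The single site within ITGA2, a platelet collagen receptor subunit (chr5:53019147-53019876), rose from 4.29 and 4.40 to 11.8 and 10.9 and 11.8 and 12.6 CPM, a log2 change of 1.49 (SE 0.22, edgeR adjusted p = 3.2e-06). ITGB3, the platelet integrin beta subunit, had 1 rising site among 4. Protein kinase C and NF-kB genes had 55 sites at 12 genes, with 14 rises and 7 falls at 6 h (25.5% and 12.7%) and 7 and 6 at 72 h (12.7% and 10.9%, near the shares over all such sites), and medians of −0.14 and −0.57. The 12 sites at PRKCB, another phorbol ester target, had 1 rise and 4 falls at 6 h, and the one with the largest fall at 72 h (chr16:24135489-24136369) had 18.3 and 9.84, then 4.09 and 2.69, then 3.54 and 3.23 CPM. TNFAIP3, an NF-kB feedback gene, had 3 of 11 sites rising and 1 falling at 6 h and 1 falling at 72 h, with log2 changes at 72 h of −1.81 to 0.32. Among 25 sites at housekeeping genes, 6 rose and 4 fell at 6 h (24.0% and 16.0%) and 2 rose and 5 fell at 72 h (8% and 20%), with medians of −0.03 and −0.84, so a list without a known link to PMA also held changing sites. A site 24.6 kb outside ACTB, the cytoskeletal actin (chr7:5554836-5555572), had 36.4 and 37.2, then 19.9 and 18.0, then 10.0 and 11.6 CPM. Of 5 sites at CTCF and cohesin genes, which encode the proteins that hold chromatin loops, 2 fell at 6 h (40%) and 1 at 72 h (20%), with medians of −0.81 and −1.40. The latter lay 55.7 kb outside NIPBL, the cohesin loader (chr5:36820805-36821429), with 7.47 and 7.31, then 3.41 and 2.81, then 2.15 and 1.84 CPM.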

How the data were processed

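ATAC-seq of K562 cells was deposited by the authors as a table of raw read counts per site and as 1 peak list per library. The submitters' processing notes name Trim Galore 0.4.3, BWA 0.7.17, SAMtools 1.9, deepTools 3.0.1, MACS2, bedtools 2.26, DESeq and hg38, without roles; how the site list and the counts were made is not given in the sources used here. The deposited peak lists hold, in the narrowPeak layout, a score, fold enrichment (a ratio), and −log10 p- and q-values per peak, and the authors' table also holds their log2 fold changes, adjusted p-values and a class per site.

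A site was always called if it shared at least 1 base with a peak in each of 6 lists. Gene ends and transcript starts came from RefSeq (GRCh38.p14), which gives no exons here. Counts of all 181135 sites in the 6 libraries (12258890 to 35548737 per library) were fitted with edgeR 4.0.16 in R 4.3.3 (quasi-likelihood, TMM, filterByExpr with a minimum count of 10), and p-values were adjusted by Benjamini-Hochberg over the 177759 tested sites. The fit was tested on simulated data. Calls were repeated with RLE factors, library totals, loess offsets (span 0.3), and TMM with its factors taken from shared peaks only or from sites without any peak. Other alternatives were DESeq2 1.42.0, no filter, a stricter threshold, other member rules, a replicate block, and leaving out each library. Same-numbered libraries deviated together: their differences between replicates correlated at 0.25, 0.14 and 0.22 across sites in the 3 pairs of times, and the pairing is taken from the replicate numbers in the labels. Standard errors are the absolute log2 change over the square root of F. Coordinates count from 1. A CPM relates the count to the TMM-scaled library size. With 2 libraries per time, the edgeR fit drew each site's estimate of spread towards a trend over all sites. The times share that estimate.

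Named sites were the 4 largest rises and falls at 72 h and at 6 h, the 2 clearest 6 h peaks and dips, the 2 steadiest, and the largest rise and fall in each gene list. They had to be called under all scalings, not to overlap between groups and to lie at most 1 per Mb, except that steady sites needed no call and list members the TMM call only. Start sites, opposite neighbours and genes with many called sites were added after their values were seen. Members, lists and tests were chosen with earlier results of these data known. A result for 1 of the sites this rule chose is not reported here.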

Additional observations from a re-analysis of the deposited data

How the results depend on the processing

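Counts and medians moved with the scaling between libraries. The median log2 change against 0 h, for 6 and then 72 h, was −0.36 and −0.79 with RLE factors, −0.073 and −0.10 with library totals, −0.28 and −0.30 with loess offsets, −0.054 and −0.39 with factors from sites without a peak, −0.36 and −0.79 with DESeq2, and reversed to 0.088 and 0.36 with factors from shared peaks. Leaving out 1 library gave −0.26 to −0.16 and −0.61 to −0.58. The 72 h median was −0.63 for a distance over 5 kb, −0.59 over 20 kb and −0.69 with 50% of the site covered, a rule that left 9673 sites. Calls at 72 h against 0 h were 4524 higher and 5132 lower with library totals, 3926 higher with loess offsets, and 7242 and 2220 with shared peaks. At 6 h the lower calls were 2352 with shared peaks and 2469 with factors from sites without a peak. Between 6 and 72 h they were 2352 higher and 3353 lower with totals, 2431 and 2340 with loess offsets, and 4642 and 1232 with shared peaks. With an adjusted p under 0.01 and a change above 1 on the log2 scale, the TMM calls higher and lower were 1775 and 1696 (6 h), 1244 and 5173 (72 h) and 292 and 2155 (between 6 and 72 h), and those under all 6 scalings 1353 and 830, 905 and 474, and 264 and 83. With 50% coverage they were 1839 and 2606, 1025 and 5741, and 304 higher, and under all scalings 1427 and 1167, 750 and 1139, and 254 higher.

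Leaving out 1 library gave 2217 to 3123 higher and 3387 to 4559 lower TMM calls at 6 h, 1773 to 2469 and 7178 to 9119 at 72 h, and 461 to 1229 and 3849 to 7629 between 6 and 72 h. Under all scalings the ranges were 1830 to 2540 and 1461 to 1930, 1315 to 1893 and 1067 to 1889, and 261 to 909 and 221 to 995. The share of counts in these sites differed between 72 and 0 h by −3.36 percentage points (leaving out 1 library, −3.94 to −2.79) and by −1.27 without the 168 sites with most counts, an alternative chosen after seeing the data. The cause of these differences was not tested.

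Named sites changed sign against TMM mainly with shared-peak factors. Between 6 and 72 h the log2 changes were then 0.58 at TYW1B, 0.65 at FAM20B, 0.47 at the RUNX1 site chr21:35106068-35107005, 0.48 at LOC105375284, 0.65 at the lncRNA start near ERCC6L2, 0.083 at that near KIF14, 0.12 at the second SOCS3 site and 0.0094 at BCAT1. At 72 h against 0 h they were 0.82 at THAP4, 0.90 at TMCO6 and 0.92 at UBE2H. Loess offsets gave 0.56 at FAM20B and 0.10 at SOCS3 between 6 and 72 h and 0.60 at UBE2H at 72 h against 0 h, where library totals gave 0.45. Of the values of named sites under the alternatives, 2145 kept direction and call, 78 lost the call, 30 gained it and 15 reversed.

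With the replicate block, which pairs same-numbered libraries, 3521 and 4950 sites were higher and lower at 6 h, 2645 and 9253 at 72 h and 1128 and 7659 between 6 and 72 h, and under all scalings 2816 and 2516, 2065 and 2045, then 1028 and 1006. No count moved by over 1.5 times, and among the named sites the block changed only 1 call, at a CRB2 site that it called higher at 72 h than at 6 h (log2 change 0.49). The smallest library limits what can be seen at weak sites, and reads of repeated loci cannot be assigned to 1 copy.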

Other observations

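In the authors' deposited table, 15821 of the 16778 always-called distal sites (94.3%) had the class static, as did 143526 of all 181135 sites (79.2%). Of the 957 always-called distal sites in another class, 364 (38.0%) had an authors' log2 fold change at 72 h with the sign that the class name states, and of the 37609 such sites overall 58.9% had. The authors' deposited table gave a median log2 fold change at 72 h of 2.257 for all sites named downEarly, 2.30 for downLate, 2.261 for upEarly and 2.28 for upLate. The class column was therefore used for no comparison here.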
